A study of Homo sapiens with 8 samples.

Results

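The glycolytic enzymes from hexokinase 2 (HK2) to lactate dehydrogenase A (LDHA) were followed in 143B and HOS, 2 lines of human osteosarcoma cells. Control cells (labelled NC) were set against cells with the label sgNAT10, called NAT10 knockout cells by the submitters. The members were chosen by name, 1 gene for each of 10 positions in pathway order: HK2, GPI, PFKP, ALDOA, TPI1, GAPDH, PGK1, ENO1, PKM and LDHA. All 10 were among the 11807 genes listed for both lines, and all 10 passed the filter on low values in each line. Polyadenylated RNA was sequenced from 8 libraries, 2 for each label in each line, and values are FPKM (fragments per kilobase of RNA, scaled to each library's mapped fragments). 143B is a transformed derivative of HOS, and both are established lines. No treatment or time is given for any group, and nothing in the labels tells whether replicate libraries are separate cultures, clones or guides. The p-values therefore reflect only how far these samples spread, and part or all of that spread may be technical.

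Glycolysis turns glucose into pyruvate in the cytosol. HK2 phosphorylates glucose, GPI and PFKP prepare the sugar for splitting, ALDOA splits it, and the enzymes from GAPDH to PKM recover ATP. LDHA reduces pyruvate to lactate, which regenerates the NAD+ that GAPDH uses, and many tumour cells run this route even with oxygen present. NAT10 is the enzyme that places N4-acetylcytidine on RNA.

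HK2 moved in opposite directions in the 2 lines. It fell to 0.311 of its control level in 143B and rose 3.10-fold in HOS. PFKP fell to 0.361 of control in 143B and was not called in HOS. In HOS, GPI, PGK1, ENO1 and PKM rose as well, by 1.16-fold to 1.57-fold, while GAPDH and LDHA fell to 0.836 and 0.852 of control. The change differed between the lines for 7 of the 10 enzymes, each time lower in 143B (limma, Benjamini-Hochberg adjusted p under 0.05), where 49.1% of all genes differed. The count was 4 under median-ratio scaling, with GAPDH and LDHA then higher in 143B and HK2 and PFKP lower. Of all 10655 genes, that scaling called 2662 higher and 2709 lower.

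The sgNAT10 label was checked on NAT10 itself (GRCh38 chromosome 11, 34105602 to 34147670, plus strand). The 143B controls held 16.1 and 20.0 FPKM of it, and the sgNAT10 libraries 9.05 and 7.19 FPKM (log2 change -1.06, SE 0.31, limma adjusted p = 0.026). In HOS the controls held 14.9 and 16.2 FPKM, and the sgNAT10 libraries 21.1 and 19.1 FPKM (log2 change 0.35, SE 0.10, limma adjusted p = 0.0054). The fall was lost without NC replicate 2 (adjusted p = 0.064), sgNAT10 replicate 1 (0.11) or sgNAT10 replicate 2 (0.22), and the HOS rise without sgNAT10 replicate 1 (0.18). Under median-ratio scaling neither was called (log2 -0.80, adjusted p = 0.060, and log2 0.14, 0.26). The HOS value was 0.09 after length and GC correction (0.21) and 0.20 under quantile normalization (0.090), and was not called with the shared spread (0.23). In HOS the label sgNAT10 therefore came without a lower NAT10 RNA level, and every HOS direction given here is between the libraries labelled NC and the libraries labelled sgNAT10. Read depth is unknown, since the tables hold no counts. Sums of the listed FPKM lay between 484793 and 798137, and the libraries of a group correlated at 0.977 to 0.984 in 143B and at 0.995 to 0.997 in HOS (Pearson, log2 values over the genes tested). Of the mesenchymal markers checked for cell type, VIM, SPARC, COL1A1, ALPL and RUNX2 were listed in both lines. VIM stood at 482 to 1741 FPKM in 143B and 716 to 929 FPKM in HOS. The others stood lower in 143B than in HOS. COL1A1 stood at 1.32 to 5.44 FPKM in 143B and 314 to 421 FPKM in HOS. SPARC stood at 16.19 to 55.85 and 270 to 306 FPKM, and ALPL at 0.44 to 4.89 and 12.53 to 16.23 FPKM. Mean RUNX2 in the controls was 0.69 FPKM in 143B, where it was not tested, and 3.12 FPKM in HOS. COL1A2 was not listed in 143B. PTPRC, HBB, CD3E, CDH1, KRT5 and KRT14 were listed in neither table. EPCAM, an epithelial marker, was listed in both, at 0.87 to 3.44 FPKM in 143B and 15.6 to 20.5 FPKM in HOS, and was called in neither. Of the endothelial markers none was listed in 143B. In HOS, PECAM1 and CDH5 summed to 1.09 to 1.11 FPKM in the controls and 1.86 to 2.02 FPKM under sgNAT10. CDH5 was called higher there (log2 0.65, limma adjusted p = 7.5e-05). It passed the filter on low values only through its sgNAT10 libraries (1.40 and 1.26 FPKM, against 0.44 and 0.52). All 4 mesenchymal markers tested in 143B (ALPL, COL1A1, SPARC, VIM) fell there, where 25.4% of all genes were called lower. ALPL passed the filter there only through its controls (4.89 and 4.45 FPKM, against 0.62 and 0.44 under sgNAT10). In HOS 3 of 6 rose (RUNX2 by 1.29, COL1A2 by 0.62 and VIM by 0.27 on the log2 scale) and 0 fell. Over all HOS genes 45.5% were called higher and 23% lower, so the count of risen markers lay near the share. ALPL, COL1A1 and SPARC were not called in HOS (limma adjusted p = 0.21, 0.13 and 0.11). VIM, the marker of this list called in both lines, fell in 143B and rose in HOS, as HK2 did. CD68 was listed without the other blood markers, so it does not by itself mark blood cells here. It fell in 143B too, from 115 ± 16.5 to 47.9 ± 3.26 FPKM (SD, n = 2). The part of these changes in the enzyme results was not tested, and in bulk RNA fewer cells of a type and less RNA per cell cannot be told apart.

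The stretches just before a RefSeq start site (GRCh38.p14) are shown for the enzymes whose response differed most between lines (HK2, PFKP) and for PGK1, GAPDH and LDHA. That start need not be the outermost start of the gene in GENCODE. The windows of GPI, PFKP, TPI1, GAPDH, PGK1, ENO1 and PKM lie inside the GENCODE span of the gene. Stretches before other starts were not searched. Each stretch shown is cut to the longest part of the 250 bases before the start that no exon on the same strand covers in GENCODE. PGK1, GAPDH and LDHA hold the searched letters in that part. The windows of GPI and ALDOA hold such letters too, but not in a part free of exons, and are not shown. Capitals mark ACGTG on either strand (CACGT when read on the other), a form of the core letters of the hypoxia response element. Other forms of that core were not searched. ACGTG also lies within CACGTG, the E-box that MYC and related factors bind.
HK2, chr2:74833877-74833980, plus strand: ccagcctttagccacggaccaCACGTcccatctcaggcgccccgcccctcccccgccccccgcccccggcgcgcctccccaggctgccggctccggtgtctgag
PFKP, chr10:3067720-3067969, plus strand: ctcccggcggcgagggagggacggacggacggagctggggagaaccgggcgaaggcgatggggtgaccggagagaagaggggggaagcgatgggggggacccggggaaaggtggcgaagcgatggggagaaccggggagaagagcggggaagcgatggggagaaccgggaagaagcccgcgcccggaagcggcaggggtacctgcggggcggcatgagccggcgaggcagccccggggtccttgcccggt
GAPDH, chr12:6535142-6535263, plus strand: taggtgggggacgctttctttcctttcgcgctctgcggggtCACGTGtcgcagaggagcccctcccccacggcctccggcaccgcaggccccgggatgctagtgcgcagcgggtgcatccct
PGK1, chrX:78103998-78104173, plus strand: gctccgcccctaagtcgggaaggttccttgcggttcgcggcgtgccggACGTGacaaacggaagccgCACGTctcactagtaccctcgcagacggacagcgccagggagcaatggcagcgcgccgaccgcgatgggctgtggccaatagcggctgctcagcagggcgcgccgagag
LDHA, chr11:18394313-18394387, plus strand: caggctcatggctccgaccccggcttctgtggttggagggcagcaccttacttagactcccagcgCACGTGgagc
All 10 enzymes had a RefSeq entry. Over the full 250 bases, ACGTG was found before 6 of the 10 (HK2, GPI, ALDOA, GAPDH, PGK1 and LDHA) and before 18.5% of all 35116 promoters of that length. CACGTG was found before 2, GAPDH and LDHA, and before 6.34% of all promoters. LDHA held 3 separate ACGTG sites, HK2 and PGK1 held 2 each, and the window of PFKP held none. Except for PFKP, exons on the same strand cover part or all of each enzyme's window. In the longest part free of exons PGK1 held 2 sites, HK2, GAPDH and LDHA 1 each, and ALDOA 0. The GPI window had no such part. The shares over all promoters were not cut in this way, so no share stands beside these last counts. The enzymes with such letters included some that rose and some that fell in HOS.

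**Figure D1:**
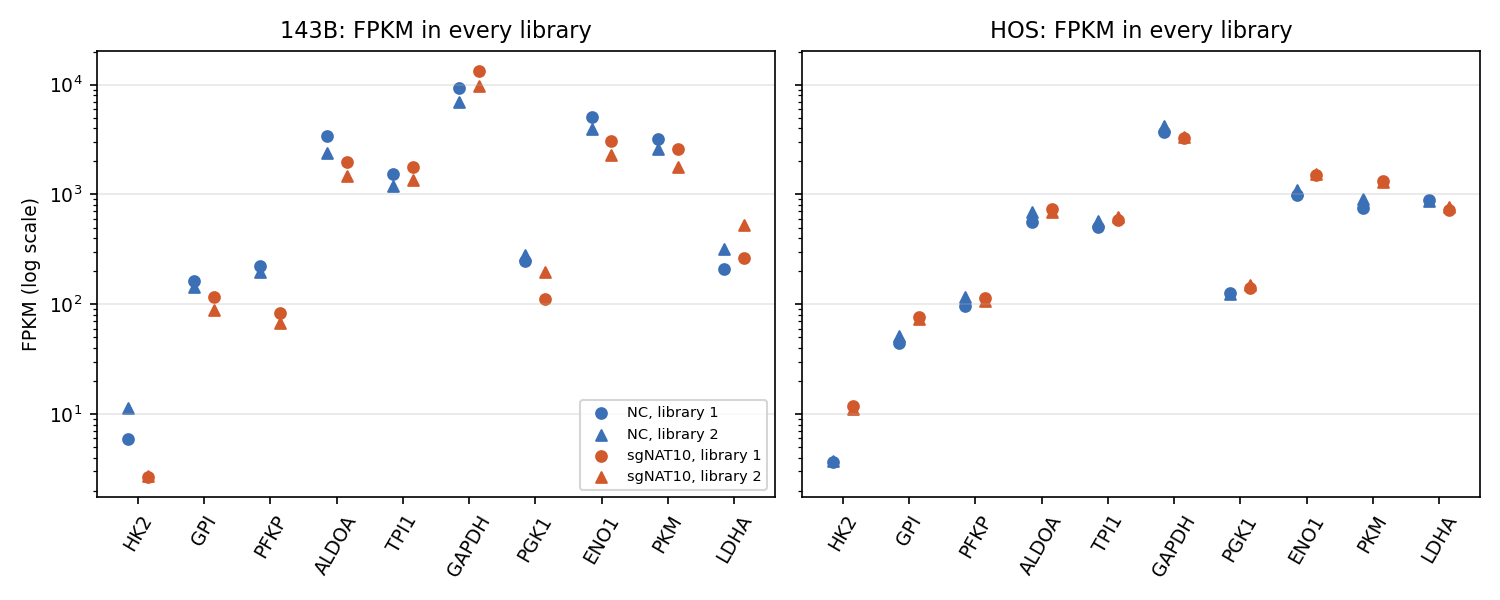
FPKM of the 10 enzymes in every library on a log axis, 143B on the left and HOS on the right, in pathway order, with control libraries in blue, sgNAT10 libraries in orange circles for library 1 and triangles for library 2. HK2 is the lowest of the 10 in all 8 libraries, at 2.67 to 11.9 FPKM, and GAPDH the highest, at 3273 to 13308 FPKM.

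HK2, the inducible hexokinase of many tumours, lies on chromosome 2 from 74833981 to 74893359 (positions are from GENCODE on GRCh38, on the plus strand unless named otherwise). In 143B the controls held 5.91 and 11.4 FPKM, and the sgNAT10 libraries 2.67 and 2.71 FPKM (log2 change -1.33, SE 0.39, limma adjusted p = 0.025). In HOS the controls stood at 3.63 and 3.76 FPKM and the sgNAT10 libraries at 11.9 and 11.1 FPKM (log2 1.41, SE 0.11, limma adjusted p = 2.4e-08). The groups did not overlap in either line, and the difference between the changes was -2.73 (SE 0.38, limma adjusted p = 0.00053). This difference was called under all 20 alternatives that were run, and the HOS rise under all 18. The 2 controls of 143B lay far apart, and the fall there was lost when NC replicate 2 (adjusted p = 0.063), sgNAT10 replicate 1 (0.17) or sgNAT10 replicate 2 (0.16) was left out.

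GPI, which converts glucose 6-phosphate to fructose 6-phosphate, lies on chromosome 19 from 34359480 to 34402413. Its 143B controls stood at 164 and 142 FPKM and its sgNAT10 libraries at 117 and 87.8 FPKM. The groups did not overlap, yet the log2 change of -0.59 (SE 0.25) was not called by limma (adjusted p = 0.096). In HOS it rose from 44.2 and 51.4 FPKM to 77.2 and 72.9 FPKM (log2 0.64, SE 0.09, limma adjusted p = 1.8e-05). The changes differed between the lines by -1.23 (limma adjusted p = 0.0050). That call was lost under median-ratio scaling (adjusted p = 0.16) and when the values were corrected for GC content and transcript length (0.051).

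PFKP is the platelet-type phosphofructokinase, which carries out the committed step, and lies on chromosome 10 from 3066333 to 3137712. It fell in 143B from 221 and 197 FPKM to 83.1 and 67.7 FPKM (log2 -1.46, SE 0.24, limma adjusted p = 0.0031). In HOS the controls at 97.1 and 116 FPKM enclosed the sgNAT10 libraries at 115 and 107 FPKM (log2 0.06, SE 0.10, limma adjusted p = 0.57). The HOS value was called higher without NC replicate 2 (adjusted p = 0.029) and with the libraries rescaled to a common sum (0.0060), and turned below 0 without NC replicate 1 (-0.06). The 143B fall was called under all 17 alternatives that were run, and the difference between lines, -1.53 (SE 0.25, limma adjusted p = 0.0013), under all 20.

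ALDOA, the aldolase that splits fructose bisphosphate, lies on chromosome 16 from 30064164 to 30070457. The 143B controls held 3394 and 2402 FPKM, and the sgNAT10 libraries 1961 and 1461 FPKM (log2 -0.75, SE 0.35, limma adjusted p = 0.12). In HOS the controls held 563 and 698 FPKM, and the sgNAT10 libraries 744 and 692 FPKM (log2 0.19, SE 0.10, limma adjusted p = 0.079). Neither change was called, and the HOS groups overlapped. Without NC replicate 2 the 143B change was called (adjusted p = 0.020), and so was the HOS change without its NC replicate 2 (0.0019). The difference of -0.95 between lines was called (limma adjusted p = 0.034), but not under 8 of the 20 alternatives, 6 of which left out 1 library: 143B NC replicate 1 (0.062), 143B sgNAT10 replicate 2 (0.092), HOS NC replicates 1 and 2 (0.15 and 0.056) or HOS sgNAT10 replicates 1 and 2 (0.12 and 0.083).

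TPI1, triose phosphate isomerase, which interconverts the products of the split, was called in neither line. The gene lies on chromosome 12 from 6867119 to 6870948, near GAPDH. In 143B the controls stood at 1541 and 1195 FPKM and the sgNAT10 libraries at 1784 and 1352 FPKM (log2 0.19, SE 0.32, limma adjusted p = 0.66), so the groups overlapped. In HOS they stood at 504 and 576 against 586 and 619 FPKM (log2 0.16, SE 0.09, limma adjusted p = 0.11), without overlap, and the change was called without NC replicate 2 (0.0091). The lines differed by 0.04 (SE 0.28, limma adjusted p = 0.93).

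GAPDH, the first enzyme of the energy-yielding part and a common reference gene in RNA work, lies on chromosome 12 from 6533927 to 6538374. In 143B the controls held 9387 and 6957 FPKM, and the sgNAT10 libraries 13308 and 9653 FPKM (log2 0.49, SE 0.45, limma adjusted p = 0.42). Both sgNAT10 libraries lay above both controls, but the gap between them was smaller than the spread within either group. Quantile normalization turned this change to -0.45 (adjusted p = 0.032). In HOS it fell from 3714 and 4224 FPKM to 3273 and 3366 FPKM (log2 -0.25, SE 0.08, limma adjusted p = 0.011). That fall was no longer called without NC replicate 2 (adjusted p = 0.14), when the libraries were rescaled to a common sum (log2 -0.04, 0.53) and with the spread shared by all 8 libraries (0.41), and quantile normalization turned it to 0.32. The lines differed by 0.74 (SE 0.31), which limma did not call (adjusted p = 0.072) except without 143B NC replicate 1 (0.013) or 143B sgNAT10 replicate 2 (0.026) among the libraries left out. GENCODE lists 62 pseudogenes named after GAPDH, none of them in the tables, so reads from near-identical copies may be placed on the gene itself. For each of the other 9 enzymes it lists 6 or fewer.

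PGK1, phosphoglycerate kinase, the first step that makes ATP, lies on the X chromosome from 77910739 to 78129296. PGK1 levels in the 143B controls were 247 and 279 FPKM, and the sgNAT10 libraries 111 and 196 FPKM. The groups did not overlap, but the log2 change of -0.83 (SE 0.30) was not called by limma (adjusted p = 0.060). It was called without NC replicate 1 (adjusted p = 0.021) and without sgNAT10 replicate 2 (0.018). In HOS it rose from 126 and 124 FPKM to 141 and 148 FPKM (log2 0.21, SE 0.08, limma adjusted p = 0.032). That rise was about the size of the median change of all HOS genes, and under median-ratio scaling, which removes the latter, PGK1 stood at -0.02 (adjusted p = 0.88). It was also lost without sgNAT10 replicate 1 (0.15) and without sgNAT10 replicate 2 (0.31). The difference between lines, -1.04 (limma adjusted p = 0.033), was lost without any 1 of 6 libraries, with adjusted p of 0.051 to 0.098 (143B NC replicate 2, 143B sgNAT10 replicate 1 and all 4 HOS libraries).

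ENO1, enolase, lies on the minus strand of chromosome 1 from 8861000 to 8879250. The 143B controls stood at 5047 and 3907 FPKM and the sgNAT10 libraries at 3065 and 2284 FPKM (log2 -0.75, SE 0.36, limma adjusted p = 0.14), without overlap. It was called there without NC replicate 2 (adjusted p = 0.039). In HOS it rose from 992 and 1091 FPKM to 1501 and 1549 FPKM (log2 0.55, SE 0.08, limma adjusted p = 1.5e-05). The lines differed by -1.30 (SE 0.28, limma adjusted p = 0.0049), a call lost under median-ratio scaling (adjusted p = 0.17).

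PKM, pyruvate kinase, lies on the minus strand of chromosome 15 from 72199029 to 72231822. The tables are by gene, so its muscle and tumour splice forms cannot be told apart. The 143B controls held 3180 and 2585 FPKM, and the sgNAT10 libraries 2588 and 1776 FPKM (log2 -0.42, SE 0.35, limma adjusted p = 0.38), and the groups overlapped. In HOS it rose from 757 and 904 FPKM to 1318 and 1290 FPKM (log2 0.66, SE 0.09, limma adjusted p = 6.7e-06). The difference between lines was -1.07 (SE 0.30, limma adjusted p = 0.017). It was lost under median-ratio scaling (adjusted p = 0.33), after length and GC correction (0.11), and without HOS NC replicate 1 (0.091), HOS sgNAT10 replicate 1 (0.066) or HOS sgNAT10 replicate 2 (0.058).

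LDHA, at the end of the route, lies on chromosome 11 from 18394388 to 18408425. In 143B the controls held 211 and 320 FPKM, and the sgNAT10 libraries 261 and 523 FPKM (log2 0.51, SE 0.37, limma adjusted p = 0.30), and the groups overlapped. The change was called without NC replicate 2 (adjusted p = 0.041). In HOS it fell from 881 and 868 FPKM to 724 and 766 FPKM (log2 -0.23, SE 0.08, limma adjusted p = 0.015). The HOS call was lost when the libraries were rescaled to a common sum (log2 -0.02, adjusted p = 0.82), without sgNAT10 replicate 1 (0.14), with the shared spread (0.61) and after length and GC correction (log2 0.02, 0.80). Quantile normalization turned it to 0.21. The lines differed by 0.74 (SE 0.44), not called by limma (adjusted p = 0.19) except, among libraries left out, without 143B sgNAT10 replicate 1 (0.015).

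**Figure D2:**
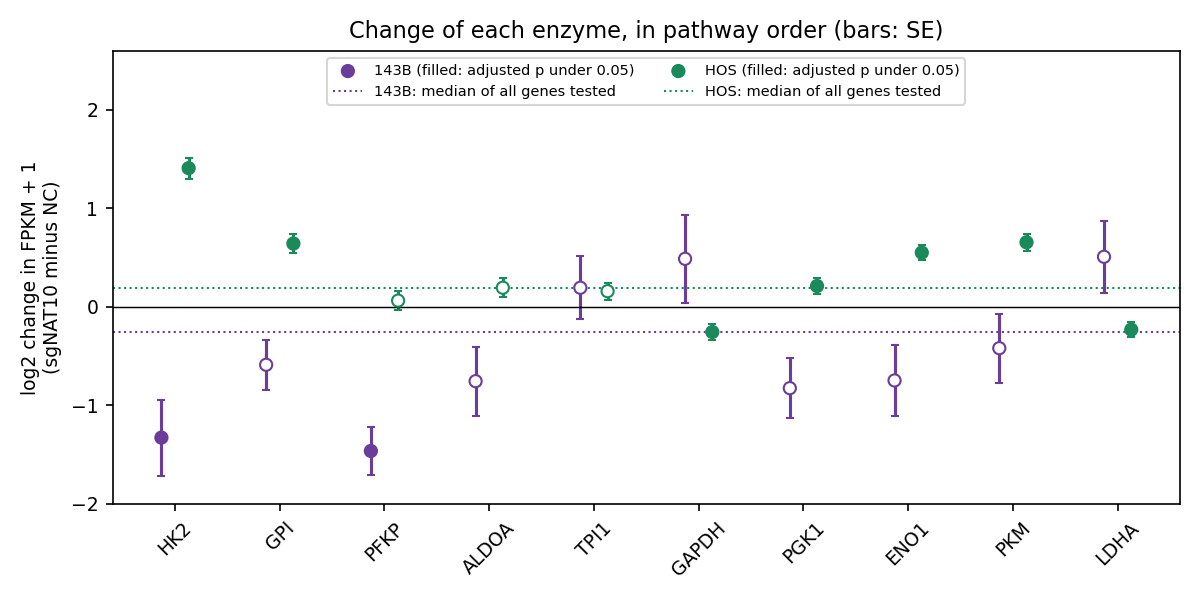
Fitted log2 change of each enzyme (sgNAT10 minus NC, log2 of FPKM + 1) in pathway order, 143B in purple and HOS in green, with SE bars, filled points for limma adjusted p under 0.05 and dotted lines at the median change of all genes tested. HK2 shows the widest gap between the lines, at -1.33 and 1.41, and the 143B bars are longer than the HOS bars for every enzyme.

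Counted together, 0 of the 10 enzymes rose and 2 fell in 143B, where 38.3% of the 11419 genes tested were called, 12.9% higher and 25.4% lower. Their median log2 change was -0.67, beside -0.25 for all genes. In 6 enzymes both sgNAT10 libraries lay below both controls, and in 1 above, where 42.8% and 23.9% of all genes did so. The 143B count was 6 fallen with the libraries rescaled to a common sum, where 3736 of 11419 genes fell. It was 7 fallen under quantile normalization, where 2847 fell. After length and GC correction it was 1 risen (GAPDH) and 3 fallen, where 1785 of 11224 genes rose and 3664 fell. In HOS 5 rose and 2 fell, where 68.5% of 11957 genes were called, 45.5% higher and 23% lower. The median of the 10 was 0.20, beside 0.19 for all genes, so the share and the median in HOS lay near the background. Both sgNAT10 libraries lay above both controls for 6 enzymes and below for 2, where 53.9% and 29.2% of all genes did so. Median-ratio scaling brings the median of all genes to -0.02 in 143B and to -0.01 in HOS. It left 2 fallen in 143B, and 4 risen (HK2, GPI, ENO1, PKM) and 2 fallen (GAPDH, LDHA) in HOS. Over all genes it gave 2361 higher and 2541 lower in 143B, and 3762 higher and 4038 lower in HOS. In HOS a common sum gave 8 risen and 0 fallen, where 7075 of 11957 genes rose and 1703 fell. Quantile normalization gave 9 and 0 there, where 3890 genes rose and 3806 fell. For the difference between lines, 0 enzymes were higher and 7 lower in 143B, where 49.1% of 10655 genes were called, 12.9% higher and 36.2% lower. The members' median was -1.06 there, and -0.44 over all genes. Under median-ratio scaling 2 were higher (GAPDH, LDHA) and 2 lower (HK2, PFKP), where 2662 of all genes were higher and 2709 lower.

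The make-up of the pathway within a library is the same whatever factor a library is multiplied by. GAPDH took 40.1% and 38.7% of the summed FPKM of the 10 enzymes in the 143B controls and 57.2% and 55.5% under sgNAT10. In HOS its share went the other way, from 48.3% and 48.8% to 38.5% and 39.0%. ENO1 mirrored it, with 21.6% and 21.7% against 13.2% and 13.1% in 143B, and 12.9% and 12.6% against 17.7% and 18.0% in HOS. ALDOA went from 13.9% ± 0.816 to 8.41% ± 0.0227 in 143B (SD, n = 2), and stood at 7.69% ± 0.520 and 8.39% ± 0.520 in HOS. PKM went from 14.0% ± 0.545 to 10.7% ± 0.643 in 143B and from 10.2% ± 0.411 to 15.2% ± 0.396 in HOS. For GAPDH, ENO1 and PKM, the groups of each line lay further apart than their libraries did, although an exact permutation test of 2 libraries against 2 cannot go below p = 0.33. These are shares of 1 sum, so a larger share of GAPDH lowers the others.

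**Figure D3:**
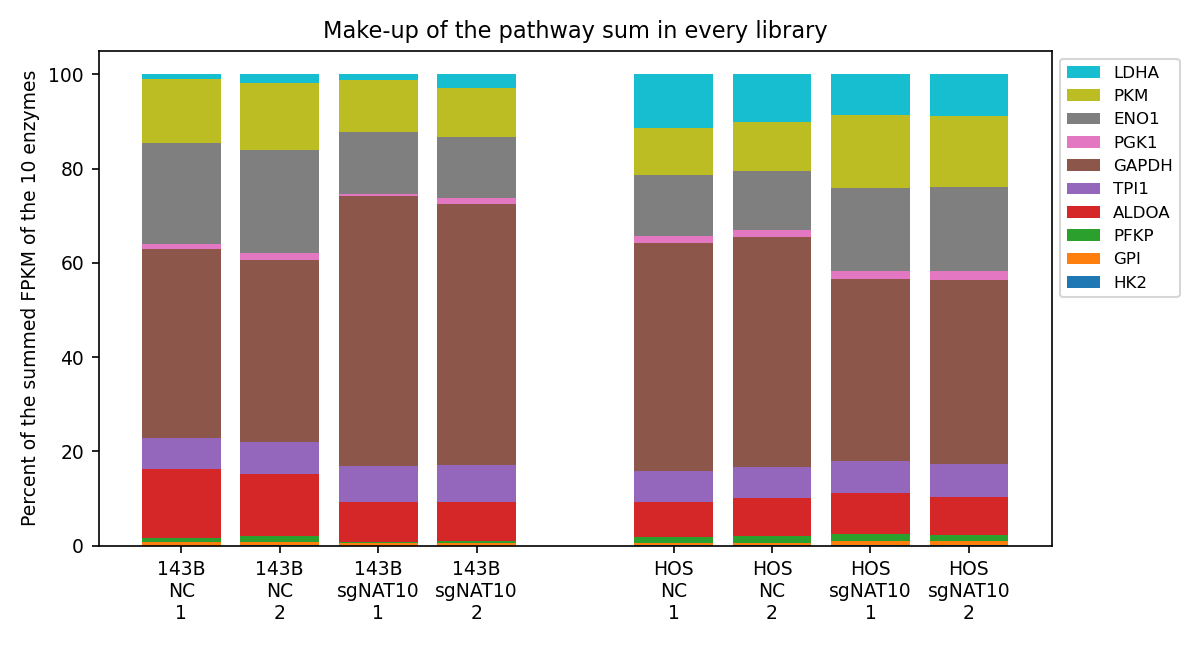
Stacked bars of the percent that each of the 10 enzymes takes of their summed FPKM, for every library. The GAPDH band is widest in the 143B sgNAT10 libraries (57.2% and 55.5%) and narrowest in the HOS sgNAT10 libraries (38.5% and 39.0%).

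The 10 enzymes together took 3.58% and 3.03% of the listed FPKM in the 143B controls and 2.92% and 2.24% under sgNAT10, a difference of -0.723 percentage points (exact permutation p = 0.33, two-sided). Without ribosomal protein and MTRNR2L genes in the total, which copy mitochondrial ribosomal RNA, the difference was -0.0442 (exact permutation p = 1.0). In HOS they took 1.37% and 1.51% in the controls and 1.75% and 1.74% under sgNAT10, a difference of 0.309 percentage points (exact permutation p = 0.33). Without those genes it was 0.158.

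Isozyme shares compare genes that catalyse the same step within 1 library. LDHA made up 58.4% and 51.1% of LDHA plus LDHB, the heart-type subunit, in the 143B controls and 75.7% and 71.1% under sgNAT10. In HOS its share was 43.2% and 43.1% in the controls and 49.6% and 49.5% under sgNAT10. The share was thus higher under sgNAT10 in both lines. In HOS LDHB fell from 1151 ± 9.67 to 758 ± 31.8 FPKM (SD, n = 2; log2 -0.60, limma adjusted p = 4.6e-06), more than LDHA did. In 143B the controls held 150 and 306 FPKM of LDHB, and the sgNAT10 libraries 83.7 and 213 FPKM (log2 -0.68, limma adjusted p = 0.28). It was called there without NC replicate 1 (adjusted p = 0.0021) or sgNAT10 replicate 2 (0.0073). HK2 was the minor hexokinase in every library. It made up 9.23% and 8.69% of HK1 plus HK2 in the HOS controls and 18.0% and 17.8% under sgNAT10. In 143B it made up 5.52% and 9.65%, and 5.11% and 6.83%, with overlap. HK1, the widely expressed hexokinase, moved with it in both lines, from 104 ± 3.96 to 43.3 ± 8.90 FPKM in 143B (log2 -1.26, limma adjusted p = 0.0059) and from 37.6 ± 2.68 to 52.5 ± 2.17 FPKM in HOS (log2 0.47, limma adjusted p = 0.00027).

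PFKP was the leading phosphofructokinase throughout. Its share of the 3 subunit genes was 63.1% and 64.8% in the 143B controls and 56.6% and 56.3% under sgNAT10, without overlap. In HOS it was 71.1% and 72.9%, and 73.4% and 72.5%. PFKL, the liver type, and PFKM, the muscle type, fell in 143B as well, by 0.97 and 1.12 on the log2 scale, less than PFKP did (the differences between genes were not tested). Without sgNAT10 replicate 2 neither call held (adjusted p = 0.15 and 0.051), nor that of PFKL without NC replicate 1 (0.072) or that of PFKM without sgNAT10 replicate 1 (0.13). Over the 8 libraries the lowest share of ALDOA in ALDOA plus ALDOC was 98.4%, and the lowest share of ENO1 in ENO1 plus ENO2 was 99.3%.

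**Figure D4:**
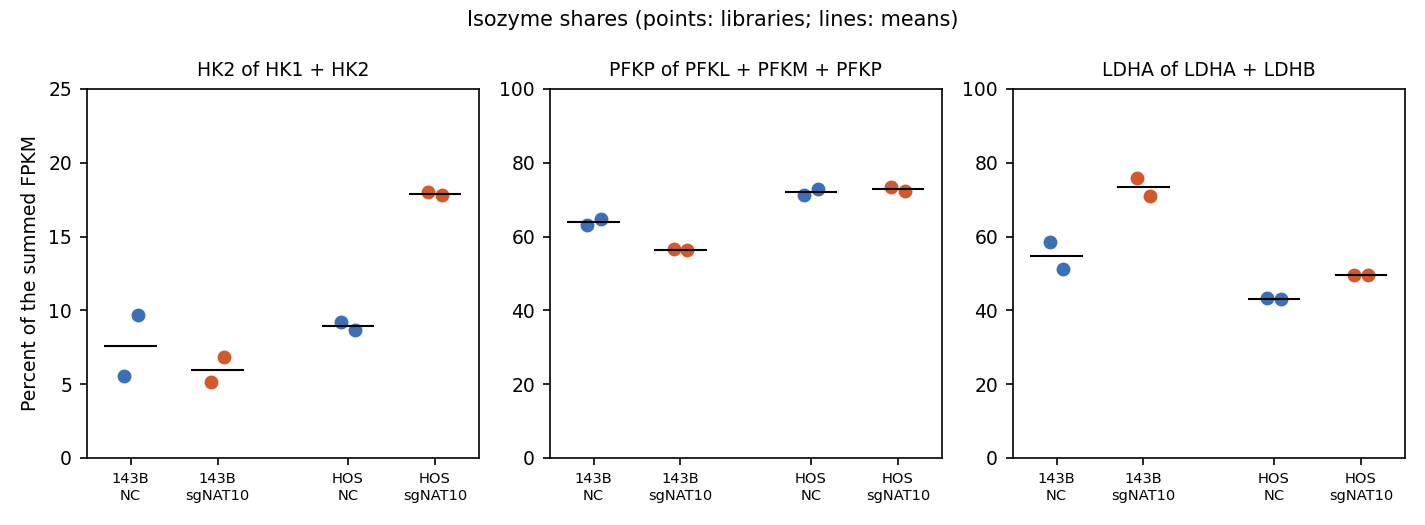
Percent that HK2, PFKP and LDHA take of the summed FPKM of their isozymes, in every library (points) with group means (lines), and a separate axis from 0 for HK2. LDHA takes a larger share under sgNAT10 in both lines, and the HK2 share is near 9% in the HOS controls and near 18% under sgNAT10.

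The control levels differed between the lines in a graded way. The tables were deposited separately, so levels set across them are a description and were not tested. The ratio of control means, 143B over HOS, was 4.60 for ALDOA, 4.298 for ENO1, 3.47 for PKM and 3.20 for GPI. It was 2.53 for TPI1, 2.34 for HK2, 2.11 for PGK1, 2.06 for GAPDH and 1.96 for PFKP. LDHA was the exception, at 0.303, with 265 ± 76.8 FPKM in 143B and 874 ± 9.38 FPKM in HOS (SD, n = 2). Control means were higher in 143B for 9 of the 10 and in HOS for 1. Over the 10237 genes with at least 1 FPKM in both lines' controls the median log2 ratio was -0.33, and over the 10 enzymes it was 1.28. For the 9 enzymes higher in 143B, the ratio exceeded that of 75.5% (PFKP) to 95.9% (ALDOA) of those genes. For LDHA it exceeded that of 19.8%.

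Within a line the order of control levels, per length, was GAPDH, ENO1, ALDOA, PKM, TPI1, LDHA, PGK1, PFKP, GPI and HK2 in 143B. ALDOA (2898 ± 701 FPKM) and PKM (2882 ± 421) overlapped there, as did LDHA (265 ± 76.8) and PGK1 (263 ± 22.2). In HOS the order was GAPDH, ENO1, LDHA, PKM, ALDOA, TPI1, PGK1, PFKP, GPI and HK2, with overlap of LDHA with PKM and of ALDOA with TPI1. GAPDH was the gene of rank 2 of 12700 in both 143B control libraries, and of ranks 8 and 6 of 12810 in those of HOS.

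In 143B the libraries of a group differed by enzyme, and in the same way in both groups. GPI, PFKP, ALDOA, TPI1, GAPDH, ENO1 and PKM were higher in library 1 than in library 2 in both groups, by 1.12-fold to 1.46-fold. LDHA stood in library 1 at 0.660 and 0.500 of its value in library 2, PGK1 at 0.887 and 0.569, and HK2 at 0.518 and 0.985. The first 7 have 53.1% to 60.8% GC in their longest coding transcript, and HK2, PGK1 and LDHA have 51.2%, 43.3% and 44.0%. Between the HOS controls the pattern was smaller and, except for HK2, the reverse. PGK1 (1.02) and LDHA (1.02) were higher in library 1, and the other 8, with HK2 among them, were lower, at 0.807 to 0.965. Between the HOS sgNAT10 libraries 5 enzymes were higher in library 1 and 5 lower. HK2 stood at 1.07 there, PGK1 at 0.951 and LDHA at 0.946. After correction for length and GC content, GAPDH rose in 143B (log2 0.87, limma adjusted p = 0.00018) and PGK1 fell (log2 -1.14, limma adjusted p = 2.3e-05). HK2 and PFKP kept their calls there, at -1.14 and -0.96.

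**Figure D5:**
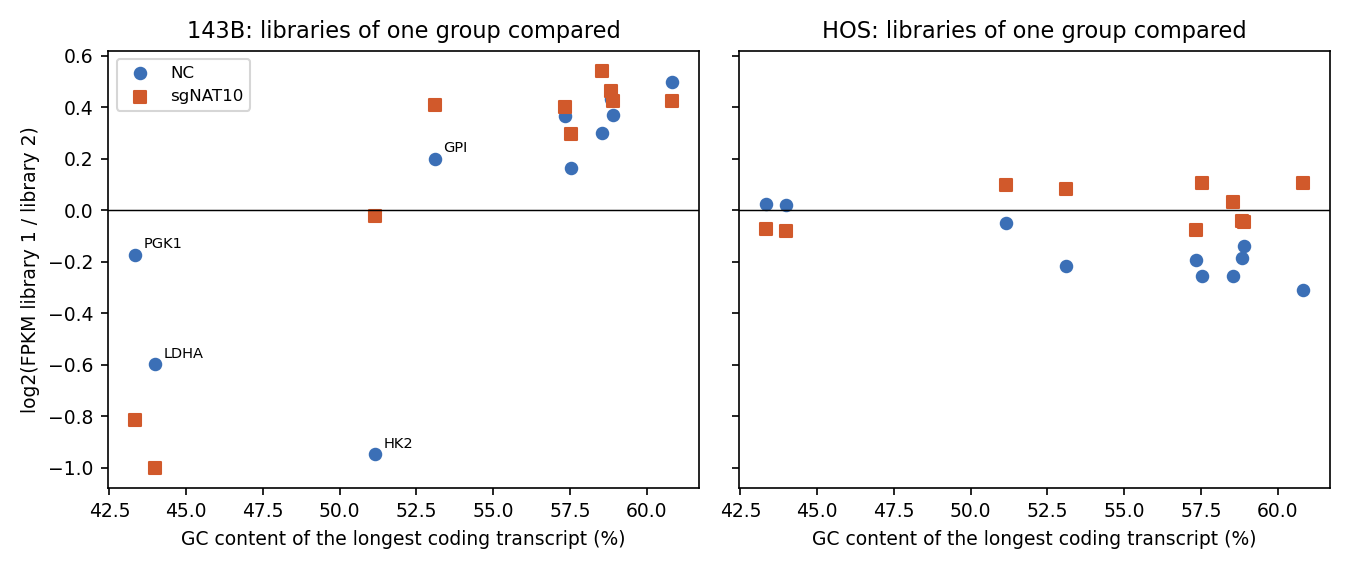
Log2 ratio of FPKM in library 1 to library 2 of the same group against the GC content of each enzyme's longest coding transcript, 143B on the left and HOS on the right, controls as blue circles and sgNAT10 as orange squares. In 143B HK2, PGK1 and LDHA, with the lowest GC contents, lie below 0 in both groups and the other 7 lie above.

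Other genes of the pathway were described from 5 lists. Each count made without rescaling stands against 12.9% higher and 25.4% lower over all genes in 143B, and 45.5% higher and 23% lower in HOS. Under median-ratio scaling the calls over all genes were 2361 higher and 2541 lower of 11419 in 143B. In HOS they were 3762 higher and 4038 lower of 11957. For a common sum they were 896 and 3736 in 143B, and 7075 and 1703 in HOS. Each median stands against -0.25 for all genes in 143B and 0.19 in HOS. Of 19 other isozyme genes, 10 were tested in 143B, where 0 rose and 7 fell (median log2 -1.07), and 10 in HOS, where 4 rose and 1 fell (median 0.19, as over all genes). Under median-ratio scaling 1 rose and 4 fell in 143B, and 3 rose and 2 fell in HOS. ALDOC, a brain-type aldolase, fell in 143B from 24.5 and 21.3 FPKM to 4.04 and 3.93 FPKM (log2 -2.26, limma adjusted p = 0.0017). In HOS it rose from 5.67 and 6.18 FPKM to 11.9 and 11.4 FPKM (log2 0.87, limma adjusted p = 2.8e-06). LDHB was the gene of the list that fell in HOS. ENO2, the neuronal enolase, fell in 143B (log2 -1.16) and rose in HOS (log2 0.51), and the 143B call did not hold without sgNAT10 replicate 1 (adjusted p = 0.061) or 2 (0.13). PGAM1, the mutase between PGK1 and ENO1, was singled out after its values were seen. It fell in 143B from 506 and 554 FPKM to 235 and 285 FPKM (log2 -1.03, limma adjusted p = 0.013), and rose in HOS from 309 and 318 to 375 and 389 FPKM (log2 0.28, limma adjusted p = 0.0046). Median-ratio scaling ended both calls (adjusted p = 0.23 and 0.59), as did leaving out sgNAT10 replicate 1 in 143B (0.15) and sgNAT10 replicate 2 in HOS (0.083).

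Transport and control genes were counted next. In 143B 0 of 13 rose and 5 fell (median -0.86), and in HOS 9 of 14 rose and 1 fell (median 0.32), beside the 12.9% higher and 25.4% lower of all 143B genes and the 45.5% and 23% of HOS. Under median-ratio scaling these were 1 and 6 in 143B, and 6 and 2 in HOS. MYC, a transcription factor that drives growth genes, had the deepest fall in 143B, from 3.65 and 5.54 FPKM to 0.21 and 0.43 FPKM (log2 -2.07, limma adjusted p = 0.0017). There MYC passed the filter on low values only through its controls, so it was tested only because those were higher. In HOS MYC rose from 1.37 and 1.39 FPKM to 5.68 and 4.59 FPKM (log2 1.36, limma adjusted p = 8.7e-08). EPAS1, the hypoxia factor HIF-2 alpha, had the largest fitted rise in HOS, from 15.02 and 15.4 FPKM to 45.5 and 42.9 FPKM (log2 1.48, limma adjusted p = 3.9e-09). That order holds on the log2(FPKM + 1) scale, which understates low genes, and the ratio of the mean FPKM was larger for MYC than for EPAS1. TXNIP, which restrains glucose uptake, was the gene that fell in HOS (log2 -0.29, limma adjusted p = 0.014), a call lost without either sgNAT10 library (0.23 and 0.11). SLC2A1, the main glucose transporter of many cells, was also singled out after its values were seen. It fell in 143B from 69.6 and 67.2 FPKM to 16.6 and 16.3 FPKM (log2 -1.99, limma adjusted p = 0.0013) and rose in HOS from 30.4 and 34.7 FPKM to 64.4 and 60.1 FPKM (log2 0.92, limma adjusted p = 5.4e-07). The difference between lines was -2.91 for SLC2A1 (limma adjusted p = 7.1e-05), close to that of HK2 (-2.73), though the pair was not compared by a test. The 143B fall of SLC2A1 was called under all 17 alternatives.

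Another list held genes that bring pyruvate into mitochondria. In 143B 1 of 12 rose and 1 fell (median -0.14), and in HOS 2 rose and 6 fell (median -0.25, beside 0.19 for all genes), where 12.9% and 25.4% of all genes did so in 143B, and 45.5% and 23% in HOS. Under median-ratio scaling 1 rose and 1 fell in 143B, and 1 rose and 7 fell in HOS, where 3762 of all HOS genes rose and 4038 fell. Rescaled to a common sum, 0 rose and 3 fell in 143B, and 4 rose and 5 fell in HOS. Of all HOS genes 7075 rose and 1703 fell with a common sum. PDP2, a phosphatase that activates pyruvate dehydrogenase, rose in both, by 1.04 and 0.67 on the log2 scale. Its 143B rise was lost without NC replicate 1 (adjusted p = 0.090), sgNAT10 replicate 1 (0.30) or sgNAT10 replicate 2 (0.31). MPC2, a subunit of the mitochondrial pyruvate carrier, fell in 143B (log2 -1.01, limma adjusted p = 0.047), a call lost without NC replicate 2 (0.058), sgNAT10 replicate 1 (0.44) or sgNAT10 replicate 2 (0.082). PDHB, a subunit of pyruvate dehydrogenase, had the deepest fall in HOS, from 143 ± 6.84 to 88.3 ± 4.79 FPKM (log2 -0.69, limma adjusted p = 3.5e-06).

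Pentose phosphate genes numbered 0 risen and 3 fallen of 8 in 143B (median -0.85), and 5 risen and 2 fallen in HOS (median 0.37). With lists of this size these counts lie within a few genes of the shares over all genes, 25.4% lower in 143B and 45.5% higher and 23% lower in HOS. Median-ratio scaling left 1 fallen in 143B, and 3 risen and 2 fallen in HOS. In HOS RPIA had the largest rise (log2 0.79) and RPE, another pentose isomerising enzyme, the deepest fall (log2 -0.47), not called without sgNAT10 replicate 1 (adjusted p = 0.052). Among genes of the reverse route and side branches, 0 rose and 3 fell of 8 in 143B (median -0.25, that of all genes), and 2 rose and 3 fell in HOS (median 0.12, beside 0.19). Over all genes 25.4% fell in 143B, and 45.5% rose and 23% fell in HOS. Their HOS split turned to 5 risen and 0 fallen with a common sum, where 7075 of 11957 genes rose and 1703 fell. Under median-ratio scaling it was 1 risen and 3 fallen. PCK2, the mitochondrial enzyme that makes phosphoenolpyruvate, fell in 143B from 45.8 and 33.97 FPKM to 6.96 and 6.74 FPKM (log2 -2.37, limma adjusted p = 0.0013). In HOS PC, pyruvate carboxylase, had the largest rise (log2 0.47) and PGM2, a sugar phosphate mutase, the deepest fall (log2 -0.33), not called without sgNAT10 replicate 1 (adjusted p = 0.072) or 2 (0.12).

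The genes whose course over the 8 libraries was most like the mean of the 10 enzymes were NCS1, SUPT5H, IRX4, TNIP1 and PHLDA2. Likeness was the Pearson correlation of log2(FPKM + 1), centred on the control mean of each line, and lay between 0.998 and 0.999 for these 5. The 8 points fall into 4 groups of libraries, so a high value mainly says that a gene was lower under sgNAT10 in 143B and higher in HOS. PHLDA2 had log2 changes of -1.37 and 1.01, and SUPT5H of -1.07 and 0.72 (its 143B call did not hold without sgNAT10 replicate 2, adjusted p = 0.10).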

How the data were processed

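RNA was measured in 8 libraries, 2 each of 143B NC, 143B sgNAT10, HOS NC and HOS sgNAT10, grouped by their titles. The authors deposited FPKM values, 1 table per cell line, per the file headers. Bowtie2, RSEM, DESeq2 and GRCh38 are named in the submitters' processing notes, without versions or roles, and the version of their annotation was not given in the sources used here. No steps that would give back whole reads were seen among low values. Depth is therefore unknown, with no counting interval and no count model.

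From these, log2(FPKM + 1) was computed, which understates the changes of low genes such as HK2. The tests used limma 3.58.1 (R 4.3.3) on genes reaching 1 FPKM in 2 or more of a line's 4 libraries (intensity trend, two-sided, Benjamini-Hochberg adjusted over all genes tested, threshold 0.05), each line on its own table. The difference between lines was 143B change minus HOS change, from a joint fit of genes passing in both. With 2 libraries against 2, each test borrows its spread from all genes. The fits were tested on simulated data.

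Named genes are the 10 enzymes, NAT10, the largest called rise and fall of each pathway list in each line, the genes of the isozyme shares and the 5 genes of most like course. A gene that the rule names is not reported here. The members and lists were chosen with earlier results of these data known. Transcript lengths, GC contents and positions came from GENCODE 29, to which 97.9% of 143B genes and 98.0% of HOS genes matched by name. Alternatives were 2 other pseudocounts, 2 filters, 3 scalings, no intensity trend, robust moderation, a 2-fold threshold on top, the replicate number as a block, a shared spread and leaving out each library. The length and GC correction (splines with 4 degrees of freedom) and a crossed block were added after seeing the data.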

Additional observations from a re-analysis of the deposited data

Results flagged for a closer look

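The change under sgNAT10 differed between the lines for 7 of the 10 enzymes by the joint limma fit, given as the 143B change minus the HOS change on the log2 scale. The values were -2.73 for HK2 (adjusted p = 0.00053), -1.53 for PFKP (0.0013), -1.30 for ENO1 (0.0049), -1.23 for GPI (0.0050), -1.07 for PKM (0.017), -1.04 for PGK1 (0.033) and -0.95 for ALDOA (0.034). Over all genes, 49.1% were called for such a difference. HK2 fell in 143B and rose in HOS. PFKP fell in 143B alone by the tests of each line, and GPI, PGK1, ENO1 and PKM rose in HOS alone, while ALDOA was called in neither line. NAT10 RNA itself differed by -1.41 (limma adjusted p = 0.0036), lower under sgNAT10 in 143B and higher in HOS.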

How the results depend on the processing

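Higher and lower calls over all 143B genes were 896 and 3736 for a common sum and 2797 and 2847 under quantile normalization. They were 2737 and 4915 with the replicate block, 1785 and 3664 after length and GC correction, and 1765 and 3788 with the shared spread. In HOS they were 589 and 99 with an added 2-fold threshold and 1562 and 302 with the shared spread. For the difference between lines they were 2662 and 2709 under median-ratio scaling. The number of enzymes called in 143B (2) was 6 for a common sum, 7 under quantile normalization and 7 with the replicate block. It was 4 after length and GC correction and 6 with the spread shared by all 8 libraries. It ranged from 1, without sgNAT10 replicate 1, to 4, without NC replicate 2. In HOS (7) it was 1 with an added 2-fold threshold and 2 with the shared spread, and ranged from 5 to 9 when a library was left out. For the difference between lines (7) it was 4 under median-ratio scaling, and ranged from 4 to 7 when a library was left out, with 4 without HOS NC replicate 1, HOS sgNAT10 replicate 1 or HOS sgNAT10 replicate 2. The share of the 10 enzymes in all listed FPKM kept its direction when a library was left out. The difference ranged from -1.06 to -0.386 percentage points in 143B and from 0.242 to 0.375 in HOS. Without ribosomal protein and MTRNR2L genes it was 0.158 in HOS. In 143B it was then -0.0442 with no direction to read, as the sgNAT10 libraries (5.11% and 3.84%) enclosed the controls (4.94% and 4.10%). Leaving out a library was not run on the share without those genes.

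Changes that turned sign under median-ratio scaling were those of PFKP (-0.16), ALDOA (-0.035), TPI1 (-0.071) and PGK1 (-0.016) in HOS. Under a common sum TPI1 turned in 143B (-0.14) and in the difference (-0.51). Quantile normalization turned TPI1 in 143B (-0.26) and in the difference (-0.81), GAPDH in 143B (-0.45), in HOS (0.32) and in the difference (-0.78), and LDHA in HOS (0.21). Length and GC correction turned PFKP in HOS (-0.12), PKM in 143B (0.11) and LDHA in HOS (0.015). Leaving out a library turned PFKP in HOS (-0.063 to 0.19), TPI1 in 143B (-0.0055 to 0.39) and TPI1 in the difference (-0.16 to 0.23). The cause was not tested.

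The replicate numbers are shared by the groups, but the labels do not tie them to a culture or day. Libraries of the same number deviated together in 143B (r = 0.61 across 11419 genes) and not in HOS (-0.11 across 11957). With the replicate block 1 enzyme rose (LDHA) and 6 fell in 143B, 5 rose and 2 fell in HOS, and 2 were higher and 7 lower for the difference. Over all genes the block gave 2737 higher and 4915 lower in 143B, against 1473 and 2897. In HOS it gave 5267 and 2614, against 5444 and 2751. For the difference it gave 2272 and 5086, against 1375 and 3860. With crossed numbers in HOS, 5 enzymes rose and 1 fell, where 5592 of all genes rose and 2866 fell. Read depth is unknown, and 2 libraries per group limit every estimate.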
